A study of Mus musculus with 4 samples.

Results

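The genes described here are 37 listed interferon response genes, the antiviral and immune genes that cells switch on after interferon. They were followed in primary cultured mouse mesenchymal stromal cells (MSCs) that carried retroviral short hairpin RNAs. A gene was represented when the accession of a non-control array probe matched its symbol in RefSeq, and a gene with several matching probes is given by the brightest of them on average. This gave 35 of the 37 genes, among 13567 genes tested in all, and all 35 were above background on each of the 4 arrays. Mx1 and Mx2 had no matching probe and were not analysed here.

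Total RNA at passage 5 was hybridised to 4 single-colour Agilent arrays. The control group was 1 culture with a control hairpin (shControl), and the knockdown group was 3 cultures, each with a hairpin against a different target sequence in Islr, the gene of the immunoglobulin superfamily protein Meflin (called hairpins 1, 2 and 3 after their label numbers). All 4 cultures were primary MSCs that had received a retroviral hairpin, and none of the arrays holds cells without a hairpin. Strain, age and number of donor animals, and the control hairpin's target, are not given in the sources used here. The knockdown cultures differ in hairpin and were not labelled as separate preparations, so n = 3 counts hairpins, and p-values measure the spread between hairpins only.

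Cells recognise double-stranded RNA with the cytosolic helicases RIG-I and MDA5 and with the endosomal receptor TLR3, and these signal through IRF factors to the gene of interferon beta. Secreted type I interferon then acts through its receptor and JAK kinases on a complex that holds STAT2 and IRF9 and binds the interferon-stimulated response element (ISRE) in the promoters of antiviral genes. Interferon gamma acts on promoters through the gamma-activated sequence (GAS). Hairpin RNAs and the vectors that carry them can set off this response, which is why interferon genes are a usual control in knockdown studies; the comparison asked whether the Islr hairpins differed from the control hairpin in these genes.

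Promoters of the listed genes were searched for 2 motifs, and sequences are printed for some genes that hold an ISRE core. The search covered RefSeq promoters of build GRCm38.p6, from 250 bases before to 50 bases after each start, which were found for 27 of the 37 genes. Both strands were read for the ISRE core, which is GAAA, any 2 bases and GAAA again (TTTC, any 2 bases and TTTC on the other strand), and for the GAS core TTCNNNGAA, whose complement reads the same. An ISRE core was present in 16 of the 27 genes (59.3%) beside 3.99% of the 27025 genes in the promoter table, and a GAS core in 8 (29.6%) beside 9.55%. A match is a description of the letters and not of binding. The 160 bases before the start are printed 5′ to 3′ on the gene's strand for 10 genes, with ISRE cores in capitals. Only genes with a core were taken, so each printed sequence had to show one. They are Isg15, whose signal varied least, and the IFIT genes Ifit1 and Ifit3. Ifit2 had no ISRE core, and all 3 IFIT genes were lowest on hairpin 2. The others are genes of the Oas cluster and of the interferon-inducible GTPases. These role groups had the lowest and the highest median on hairpin 3. Oasl1 and Oasl2 had no ISRE core.
Isg15: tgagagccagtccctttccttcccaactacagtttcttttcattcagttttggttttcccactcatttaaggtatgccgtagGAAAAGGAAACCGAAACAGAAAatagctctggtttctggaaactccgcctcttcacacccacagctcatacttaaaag
Ifit1: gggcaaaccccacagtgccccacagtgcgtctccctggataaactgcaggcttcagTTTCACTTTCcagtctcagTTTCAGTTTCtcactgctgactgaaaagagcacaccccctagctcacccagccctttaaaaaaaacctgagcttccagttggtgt
Ifit3: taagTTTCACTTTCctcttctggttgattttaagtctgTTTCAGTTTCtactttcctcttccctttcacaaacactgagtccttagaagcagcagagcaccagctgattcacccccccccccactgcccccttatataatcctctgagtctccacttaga
Oas1a: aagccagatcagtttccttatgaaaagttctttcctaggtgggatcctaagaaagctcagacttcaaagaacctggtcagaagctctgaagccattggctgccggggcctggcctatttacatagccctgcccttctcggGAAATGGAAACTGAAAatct
Oas1g: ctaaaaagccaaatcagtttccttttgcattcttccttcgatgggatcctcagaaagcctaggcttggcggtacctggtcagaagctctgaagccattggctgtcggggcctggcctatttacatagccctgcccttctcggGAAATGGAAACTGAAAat
Oas3: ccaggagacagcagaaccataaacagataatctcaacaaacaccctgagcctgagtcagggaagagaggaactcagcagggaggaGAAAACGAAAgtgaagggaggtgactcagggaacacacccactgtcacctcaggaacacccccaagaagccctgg
Gbp2: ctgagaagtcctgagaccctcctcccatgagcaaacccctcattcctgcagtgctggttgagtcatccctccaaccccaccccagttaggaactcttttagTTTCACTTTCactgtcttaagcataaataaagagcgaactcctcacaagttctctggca
Gbp3: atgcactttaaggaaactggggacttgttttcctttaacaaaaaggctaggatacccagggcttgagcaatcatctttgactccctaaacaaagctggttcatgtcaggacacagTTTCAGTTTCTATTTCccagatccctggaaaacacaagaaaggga
Irgm1: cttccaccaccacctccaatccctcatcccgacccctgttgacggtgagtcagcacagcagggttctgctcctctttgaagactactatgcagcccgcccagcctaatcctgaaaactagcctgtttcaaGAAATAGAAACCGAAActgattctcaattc
Igtp: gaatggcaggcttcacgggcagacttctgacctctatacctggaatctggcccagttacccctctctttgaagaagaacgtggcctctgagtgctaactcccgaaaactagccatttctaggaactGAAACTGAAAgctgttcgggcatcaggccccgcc

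These windows lie, in order, with Isg15 at chr4:156200819-156200978 (- strand), Ifit1 at chr19:34640729-34640888 (+ strand), Ifit3 at chr19:34583369-34583528 (+ strand), Oas1a at chr5:120907526-120907685 (- strand), Oas1g at chr5:120887614-120887773 (- strand), Oas3 at chr5:120777660-120777819 (- strand), Gbp2 at chr3:142620503-142620662 (+ strand), Gbp3 at chr3:142559884-142560043 (+ strand), Irgm1 at chr11:48871421-48871580 (- strand) and Igtp at chr11:58199396-58199555 (+ strand). Isg15 has 3 overlapping cores in the run GAAAAGGAAACCGAAACAGAAA. Oas1a and Oas1g carry the same run, GAAATGGAAACTGAAA, close to the start. Ifit1 and Ifit3 each have the separate cores TTTCACTTTC and TTTCAGTTTC, read on the other strand. Over the 27 genes, 25 ISRE matches were found, 8 genes held more than 1, and 2 genes (Ifih1 and Eif2ak2) held theirs after the start. In Bst2 an ISRE match overlapped a GAS match. Irf7, Irf9, Ifi44, Oasl1, Oasl2, Tlr3 and Xaf1 had neither motif in this window, which says only that these letters are not there.

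**Figure D1:**
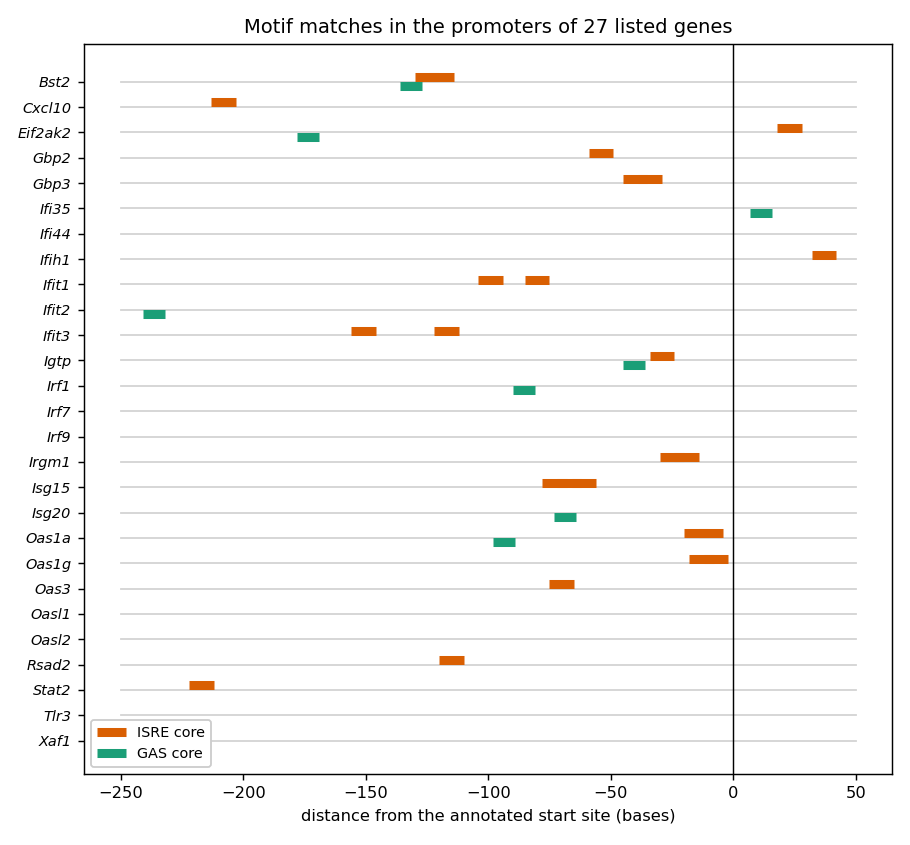
Positions of ISRE cores (orange) and GAS cores (green) in the promoters of 27 listed genes, as distance in bases from the annotated start site, with 1 line per gene and all its annotated promoters of the table overlaid. ISRE cores are present in 16 genes and GAS cores in 8.

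The labels were checked on the targeted gene and on cell type markers. The Islr probe read 454 (processed signal) with the control hairpin and 70.5 with hairpin 2, a 6.33-fold lower value once the arrays were scaled. With hairpins 1 and 3 Islr was not well above background. Taken against the lowest signal called above background there, it was lower by at least 20.5-fold with hairpin 1 and by at least 29.6-fold with hairpin 3. The share of the 59305 features called well above background ran from 49.4% to 53.8% per array, no feature was saturated, and the 4 arrays shared 1 slide and 1 scan. Features of the same probe on an array, for probes with 4 or more features above background, had a median SD between 0.063 and 0.068 on the log2 scale. Of 14 MSC and stromal markers, 13 were above background on all 4 arrays, with a summed scaled signal of 380922 to 472722. Of 13 macrophage and haematopoietic markers, 6 were above background on all 4 arrays (summed signal 8070 to 12699). These were Itgam (5063 to 9327), Cd14 (1041 to 1772), Csf1r (1043 to 1368), Cd68 (260 to 475) and the dim Fcer1g and Coro1a. The other 7, among them the pan-leukocyte gene Ptprc, Adgre1 and Lyz2, were above background on none. Of 8 endothelial markers 5, with Cdh5 and Emcn, were above background on no array (summed signal 3407 to 3650). Kdr was above background on all 4, at 3304 to 3532, and made up most of that sum. Pecam1 was above background on all 4 as well, but dim. Of 6 plasmacytoid and dendritic cell markers, Ccr9, Itgax and Flt3 were above background on no array, while Siglech had signals from 53175 to 61838 and Tcf4 from 4323 to 9398 (summed signal 57518 to 69169). Nearly all of that sum is the Siglech probe, and whether it reads another transcript was not tested. The macrophage sum, most of it the Itgam probe (8880 with the control hairpin and 5063 with hairpin 3), was lowest with hairpin 3. Of the 6 tested markers, 4 (Cd68, Csf1r, Fcer1g and Coro1a) were below the control on all 3 hairpins (66.7%, beside 24.6% of all genes). Cd14 alone was above it on all 3 (16.7%, beside 27.6%), at 1436 with hairpin 3 beside 1041 with the control hairpin. The stromal sum was also lowest with hairpin 3, and the part of the cell type markers in any difference given here was not tested.

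Interferon response genes were bright in the cells with the control hairpin. The scaled signal is the processed intensity after each array was brought to the 75th percentile of the control array, which is 442.5. On the control array 31 of the 35 genes lay above that percentile (88.6%, beside 62.3% of all genes tested), and 24 lay above 10 times that level (68.6%, beside 22.1%). Brightness also depends on the probe, so these shares describe the arrays and do not rank genes. Isg15, which encodes a ubiquitin-like modifier that is conjugated to proteins during the antiviral response, read 73796 with the control hairpin and 84213, 76066 and 78614 with hairpins 1 to 3. The highest and the lowest of these 4 values differed by 1.14-fold, the smallest range of the 35 genes. Bst2, the gene of the membrane protein tetherin that holds budding virions at the cell surface, had signals of 63231, 73352, 53129 and 71411 in the same order. The 4 genes below the percentile on every array were Tlr3, Oas1g, Oas3 and Trim14. Since no array holds cells without a hairpin, the level common to the 4 arrays has no untreated comparison here.

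**Figure D2:**
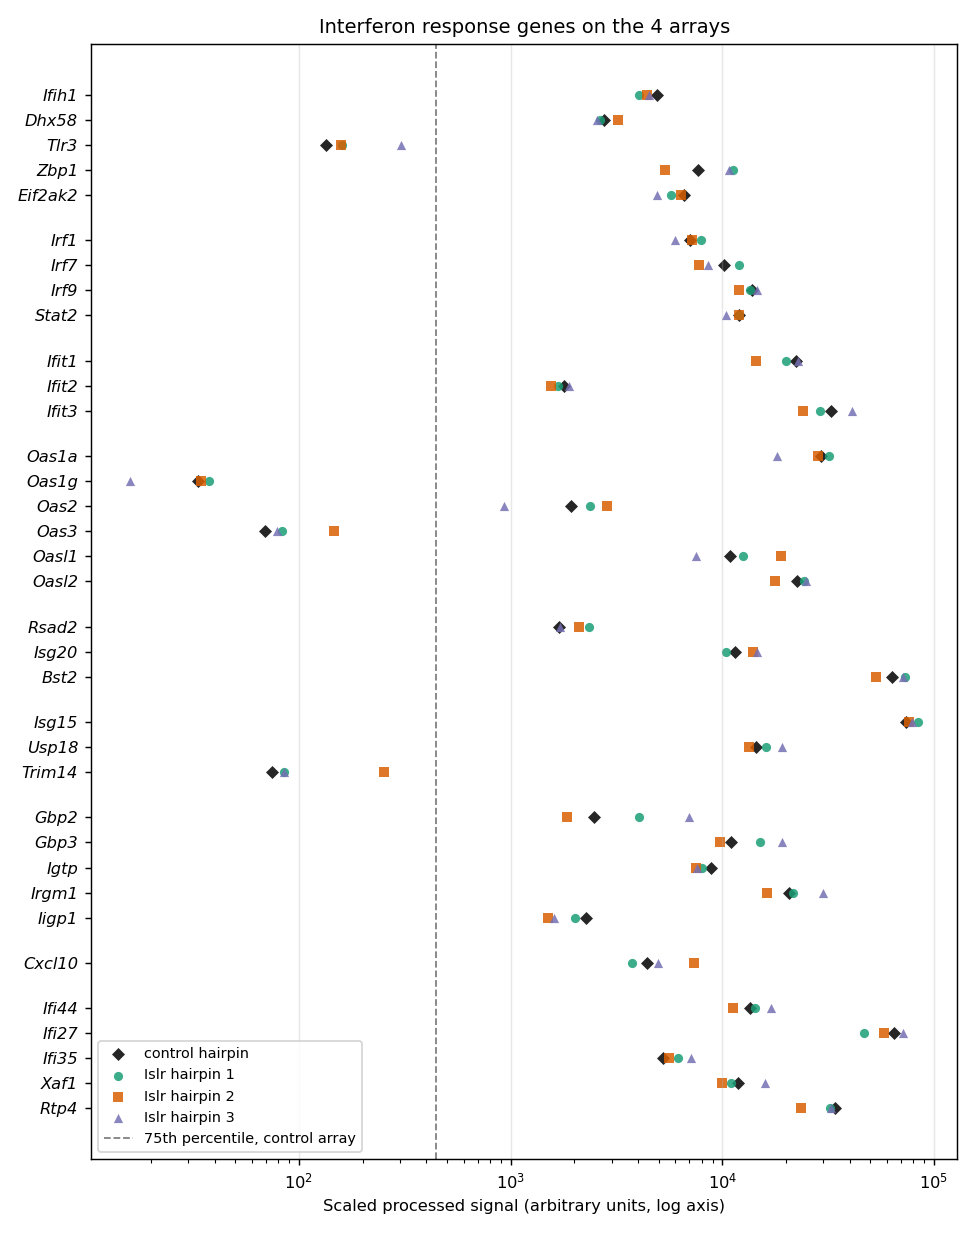
Scaled processed signal (arbitrary units, log axis) of the 35 genes on the control array and the 3 Islr hairpin arrays, 1 symbol per array, grouped by role from sensors at the top to other interferon-stimulated genes at the bottom. Of the 35 genes, 31 lie to the right of the dashed line, the 75th percentile of the control array, on all 4 arrays.

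No interferon response gene passed the test between the Islr hairpins and the control hairpin. limma called none of the 35 at an adjusted p under 0.05, and none had an unadjusted p under 0.05. Of all genes tested, limma called 0% higher and 0.346% lower. Without adjustment the shares of all genes were 1.52% higher and 3.31% lower. Adjusted p-values of the 35 genes lay between 0.964 and 0.998. The median over the 35 genes of the mean log2 difference, hairpin minus control, was 0.01, and over all genes tested it was also 0.01. None was at least 2-fold higher or at least 2-fold lower on all 3 hairpins, where 0.236% of all genes were higher and 1.69% lower by that rule. All 35 were above background on all 4 arrays, as were 12716 of the 13567 genes tested. The filter also kept genes above background with the control hairpin alone, which can only add to the lower side. With only probes above background on all 4 arrays kept, limma called 0 genes lower. The share of the lower percentages that comes from this filter was not tested.

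Direction was mixed between the hairpins. Of the 35 genes, 6 were above the control on all 3 hairpins and 6 below it on all 3, while 23 went both ways; over all genes 27.6% were above and 24.6% below on all 3. The 6 higher genes were Tlr3, Oas3, Rsad2, Isg15, Trim14 and Ifi35. The 6 lower genes were Ifih1, Eif2ak2, Stat2, Igtp, Iigp1 and Rtp4. Under the other scalings tried, between 4 and 6 genes were above and between 6 and 8 below on all 3, and a second Isg15 probe was below the control on hairpin 2, at -0.03. All 3 differences of a gene share the control array, so its error alone moves them together. In 26 of the 35 genes (74.3%) the mean difference was smaller than the SD between hairpins, beside 50.7% of all genes. Mean differences ran from -0.43 for Iigp1 to 0.72 for Trim14, and 31 of the 35 were within 0.5 of 0 on the log2 scale.

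The precision of these differences was limited by the single control array. limma's 95% confidence intervals had half-widths from 0.49 to 2.04 on the log2 scale, with a median of 0.78. For 20 of the 35 genes the interval stayed inside a 2-fold change in either direction. The outermost bounds were 3.77-fold lower, for Oas2, and 6.25-fold higher, for Trim14. Isg15, with one of the narrow intervals, was at 0.11 ± 0.07 (SD, n = 3 hairpins), with an interval from -0.39 to 0.61.

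**Figure D3:**
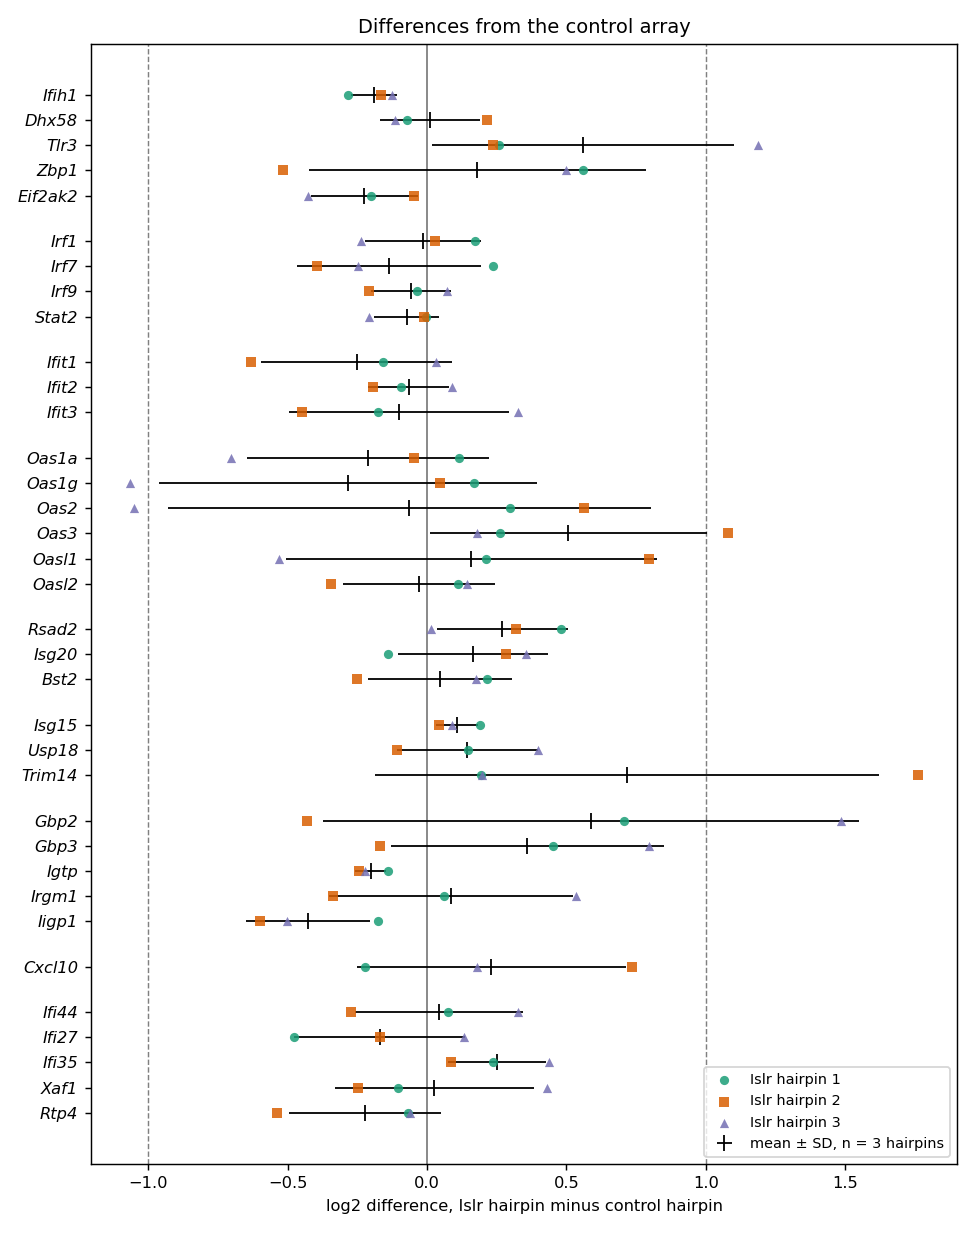
Log2 difference from the control array for each of the 35 genes, with 1 coloured symbol per Islr hairpin and black bars for the mean ± SD (n = 3 hairpins). Dashed lines mark a 2-fold difference. Single hairpins pass these lines for Tlr3, Oas1g, Oas2, Oas3, Trim14 and Gbp2, and no gene passes them on all 3.

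Differences appeared at the level of single hairpins, where each is 1 array against 1 and has no replicate check. Hairpins 1, 2 and 3 gave medians over the 35 genes of 0.11, -0.16 and 0.09, and over all genes tested of -0.01, 0.002 and 0.05. On hairpin 1, 20 genes were above the control and 15 below it (49% and 51% of all genes), and none differed by 2-fold, where 1.46% of all genes were at least 2-fold higher and 3.99% at least 2-fold lower. On hairpin 2, 13 genes were above the control and 22 below (50.3% and 49.7% of all genes); Oas3 and Trim14 were at least 2-fold higher (1.88% of all genes) and none was at least 2-fold lower (4.1%). On hairpin 3, 22 genes were above the control and 13 below (55.1% and 44.9% of all genes); Tlr3 and Gbp2 were at least 2-fold higher (3.17%) and Oas1g and Oas2 at least 2-fold lower (5.45%). Hairpin 2 was the lowest of the 4 arrays in 17 of the 35 genes (48.6%, beside 25.4% of all genes), and hairpin 3 the highest in 15 (42.9%, beside 34%). Set against each other, hairpin 3 was above hairpin 2 in 23 genes and below it in 12 (53% and 47% of all genes).

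**Figure D4:**
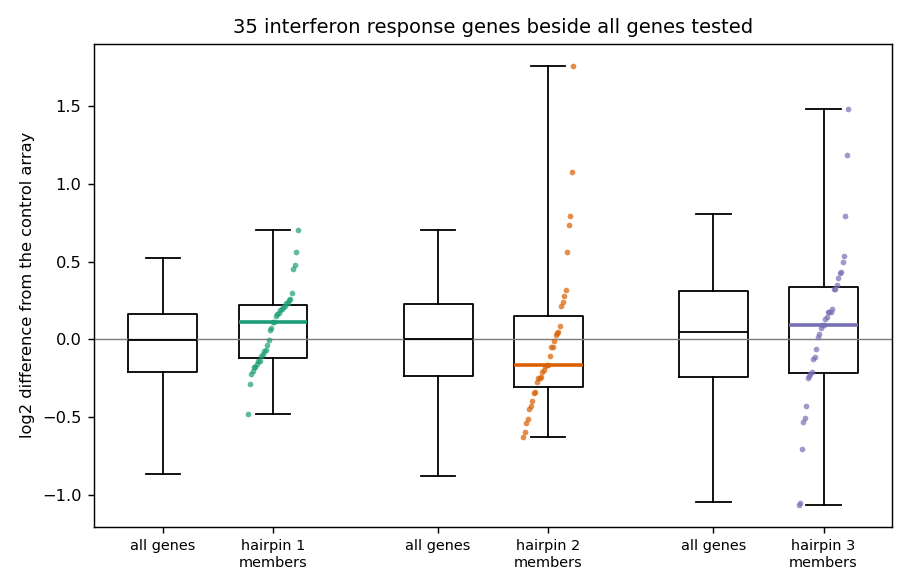
Log2 difference from the control array on each hairpin, for all 13567 genes tested (open boxes: quartiles, whiskers from the 5th to the 95th percentile, outer points not drawn) and for the 35 interferon response genes (coloured points, with quartile boxes and whiskers over the full range). The coloured medians are 0.11, -0.16 and 0.09 on hairpins 1 to 3.

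The sensors of foreign nucleic acid showed no common direction. Ifih1, which encodes MDA5, read 4921 with the control hairpin and 4041, 4393 and 4513 with hairpins 1 to 3, a mean difference of -0.19 ± 0.08. All 3 hairpins were below the control, by no more than 0.28. A second Ifih1 probe, far dimmer, was at -0.59, -0.10 and -0.49 on the same hairpins. Dhx58, which encodes the helicase LGP2 that tunes RIG-I and MDA5, was at 0.01 ± 0.18, with hairpins on both sides of the control. Eif2ak2, which encodes the RNA-activated kinase PKR that halts translation, was at -0.22 ± 0.19, with signals of 6581 (control), 5721, 6375 and 4901. Tlr3 had signals of 134, 160, 158 and 305, so that hairpin 3 stood 2.28-fold above the control and the other hairpins lay near it (0.56 ± 0.54; limma adjusted p = 0.964). With normexp background correction and quantile normalization the Tlr3 difference on hairpin 3 was 0.88, under 2-fold. Zbp1, the gene of a sensor of left-handed nucleic acid, had signals of 7663, 11299, 5363 and 10813, above the control on hairpins 1 and 3 and below it on hairpin 2. A second Zbp1 probe gave differences of 0.25, -0.44 and 0.30 on hairpins 1 to 3, in the same directions as the first (0.56, -0.51 and 0.50).

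The transcription factors that carry the interferon signal lay close to the control. Stat2 and Irf9, subunits of the ISRE-binding complex, were at -0.07 ± 0.12 and -0.06 ± 0.14. Stat2 had signals of 12048, 12022, 11966 and 10438 on the control array and hairpins 1 to 3, lowest on hairpin 3. Irf7, the factor that amplifies type I interferon production, had signals of 10176, 11985, 7748 and 8569, above the control on hairpin 1 and below it on hairpins 2 and 3. Irf1, a factor of the interferon gamma response, was at -0.01 ± 0.21. No factor was at least 1.5-fold from the control on any hairpin.

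The IFIT genes encode proteins that bind viral RNA and block its translation. Ifit1 read 22381 with the control hairpin and 20063, 14456 and 22892 with hairpins 1 to 3. Ifit3 had signals of 32781, 29006, 24020 and 41146, and Ifit2 of 1783, 1672, 1558 and 1898. In all 3 genes hairpin 2 was the lowest array and hairpin 3 the highest, and hairpin 3 was above and the other hairpins below the control. The differences on hairpin 2 were -0.63 for Ifit1, -0.45 for Ifit3 and -0.19 for Ifit2, and the means over hairpins (-0.25 ± 0.34, -0.10 ± 0.39 and -0.07 ± 0.14) were smaller than their SD. Ifit3b, a close copy of Ifit3 that its probe may not tell apart, was at -0.18, -0.36 and 0.37 on hairpins 1 to 3.

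The oligoadenylate synthetases, which make short adenylate chains as an antiviral messenger, varied most between hairpins: the median SD of their differences was 0.58, beside 0.30 for the 35 genes and 0.20 for all genes. Oas2 read 1928 with the control hairpin and 2371, 2850 and 931 with hairpins 1 to 3. It was thus above the control on hairpins 1 and 2 and 2.07-fold below it on hairpin 3, with a mean of -0.06 ± 0.87. Oas1a had signals of 29444, 31875, 28494 and 18077, and a second probe of the gene was 0.90 lower on hairpin 3 where the first was 0.70 lower. Oas1g, a close paralog of Oas1a (cross-reading between their probes was not tested), had dim signals of 33.3, 37.4, 34.5 and 15.9, with hairpin 3 again the lowest and 2.09-fold below the control. With normexp and quantile normalization the difference on hairpin 3 was -0.33 for Oas1g in place of -1.06, and -0.98 for Oas2 in place of -1.05. Oas3, in the same cluster on chromosome 5, had signals of 69.4, 83.2, 146 and 78.6, and hairpin 2 stood 2.11-fold above the control (a log2 difference of 1.08, and 0.62 with normexp). Oasl1, which encodes a relative without synthetase activity that restrains Irf7 translation, had signals of 10884, 12601, 18908 and 7530, highest on hairpin 2 and lowest on hairpin 3. Oasl2 had signals of 22495, 24310, 17730 and 24852, the reverse order of Oasl1 between hairpins 2 and 3. Of the 6 genes, 5 were lower on hairpin 3 than on hairpin 2.

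The other antiviral effectors and the ISG15 system were near the control, apart from Trim14. Rsad2, which encodes viperin, an enzyme that makes a chain-terminating nucleotide, had signals of 1691, 2356, 2107 and 1708 on the control array and hairpins 1 to 3 (0.27 ± 0.24). Isg20, the gene of an RNA exonuclease, was at 0.16 ± 0.27 and Bst2 at 0.05 ± 0.26, both with hairpins on either side of the control. Usp18, which encodes the protease that removes ISG15 and damps the type I receptor, had signals of 14491, 16054, 13439 and 19070 (0.15 ± 0.25). Trim14, the gene of an adaptor of the antiviral protein MAVS, had signals of 74.3, 85.0, 252 and 85.1. Hairpin 2 alone stood 3.39-fold above the control, and the mean of 0.72 ± 0.90 was within the SD. With normexp the hairpin 2 difference of Trim14 was 1.14 in place of 1.76. A dimmer Trim14 probe was above background on none of the arrays.

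Among the interferon-inducible GTPases, which attack the vacuoles of intracellular pathogens, Gbp2, Gbp3 and Irgm1 were highest on hairpin 3 and lowest on hairpin 2, while Igtp and Iigp1 were nearly level between these arrays. Gbp2 read 2481 with the control hairpin and 4051, 1843 and 6944 with hairpins 1 to 3. Hairpin 3 was 2.80-fold above the control and hairpin 2 was below it by 0.43 on the log2 scale. Gbp3, its neighbour on chromosome 3, had signals of 11030, 15102, 9809 and 19142, in the same order of arrays. Irgm1 had signals of 20661, 21560, 16353 and 29915, and a second Irgm1 probe gave 0.13, -0.30 and 0.52 on the hairpins where the first gave 0.06, -0.34 and 0.53. All 5 GTPase genes were higher on hairpin 3 than on hairpin 2 (53% of all genes), with a median difference of 0.87 between these arrays. Igtp (-0.20 ± 0.06) and Iigp1 (-0.43 ± 0.22) were below the control on all 3 hairpins. Igtp had signals of 8872, 8056, 7490 and 7603, a narrow set of hairpin values that all lay under the control. Iigp1 had the lowest mean of the 35 genes, from 2269 on the control array to 2011, 1498 and 1601, with a limma adjusted p of 0.964.

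Cxcl10, which encodes the chemokine that draws activated T cells, read 4394 with the control hairpin and 3763, 7318 and 4976 with hairpins 1 to 3. Hairpin 2 was the highest array and hairpin 1 the lowest, and the mean was 0.23 ± 0.48. Of the other interferon-stimulated genes, Ifi35 (0.25 ± 0.18) was above the control on all 3 hairpins, with signals of 5276, 6209, 5595 and 7137. Rtp4 (-0.22 ± 0.27) was below it on all 3, with signals of 34038, 32474, 23439 and 32616 and hairpin 2 the lowest. Ifi27 had signals of 65147, 46778, 58015 and 71504, so that hairpin 1 was the lowest and hairpin 3 the highest. Ifi44 (0.04 ± 0.30) and Xaf1 (0.03 ± 0.36) had hairpin 2 as their lowest array and hairpin 3 as their highest.

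The range over the 4 arrays was taken as the highest signal over the lowest. The highest array was at least 2-fold above the lowest in 8 of the 35 genes (22.9%, beside 16.4% of all genes tested): Tlr3, Zbp1, Oas1g, Oas2, Oas3, Oasl1, Trim14 and Gbp2. It was under 1.5-fold in 16 (45.7%, beside 61.5%). The median of this range was 1.51-fold over the 35 genes and 1.39-fold over all genes. Of the 8 genes, Gbp2 had the widest range at 3.77-fold and Trim14 followed at 3.39-fold. Where 8 genes had a second probe above background on all 4 arrays, its difference from the control had the same sign as the first in 23 of 24 comparisons, with a median gap of 0.08 and a largest gap of 0.37, in Ifih1. Genes with an ISRE core in the promoter window (16) had medians of 0.09, -0.11 and 0.06 on hairpins 1 to 3, and the 11 genes without one had 0.11, -0.19 and 0.14.

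Upstream of these genes, interferon ligands and receptors were measured from a list of 12, of which 8 were tested. Of these, 3 were above the control on all 3 hairpins (37.5%), none was below it on all 3, and none was called. Over all genes 27.6% were above and 24.6% below on all 3, which is the background for each list that follows. Ifnb1, the gene of interferon beta, was dim, at 81.8 with the control hairpin and 56.6, 43.5 and 143 with hairpins 1 to 3, lowest on hairpin 2 and highest on hairpin 3. The receptor subunit genes Ifngr1 (0.33 ± 0.18), Ifnar1 (0.23 ± 0.34) and Ifngr2 (-0.15 ± 0.15) differed little. Ifna4 and Ifnlr1 were above background on no array and Ifng on 1. Of 10 JAK and STAT genes and their regulators, 2 were above and 2 below the control on all 3 hairpins (20% each). Stat3, a mediator of interleukin signals, had signals of 8707, 7236, 5510 and 7626, below the control on all 3 hairpins (-0.37 ± 0.25; limma adjusted p = 0.964).

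Of 17 tested genes of RNA and DNA sensing, 3 were above (17.6%) and 6 below (35.3%) the control on all 3 hairpins, beside 27.6% and 24.6% of all genes. The 3 above were Ddx58, which encodes RIG-I, Cgas, the gene of the DNA sensor cGAS, and Irf5, the first 2 named after their values were seen. Ddx58 read 14836 with the control hairpin and 17396, 17460 and 21157 with hairpins 1 to 3 (0.33 ± 0.16; limma adjusted p = 0.964). Cgas was at 0.52 ± 0.09, with the hairpins close together and all above the control. Irf5, a factor downstream of Toll-like receptors, had signals of 126, 160, 259 and 276 (0.84 ± 0.43). Myd88, the Toll-like receptor adaptor gene, had signals of 1820, 1274, 1845 and 701, lowest on hairpin 3. The 6 below were Prkra, whose protein activates PKR, at -0.58 ± 0.33, and Ticam1, Traf3, Trim25, Tlr9 and Adar. All of these but Prkra were named after their values were seen, with means from -0.27 for Traf3 to -0.11 for Tlr9. Of 9 small RNA processing genes, 3 were above (33.3%) and 4 below (44.4%) the control on all 3 hairpins. Ago4, a dim Argonaute gene, was at least 2-fold lower on all 3, as were 1.69% of all genes. Its signals were 114, 33.2, 57.0 and 50.4 (-1.32 ± 0.41, limma adjusted p = 0.818). Tarbp2, the gene of a Dicer partner, was at 0.56 ± 0.11, Ago3 at -0.59 ± 0.17 and Ago1 at -0.51 ± 0.25.

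Further interferon-stimulated genes were measured from a list of 50. Of 43 tested, 11 were above (25.6%) and 13 below (30.2%) the control on all 3 hairpins, beside 27.6% and 24.6% of all genes. None was called, and the medians on hairpins 1 to 3 were 0.07, -0.21 and -0.01. Ifi27l2a, an interferon-induced membrane protein gene, had signals of 84782, 66607, 40807 and 31646, below the control on every hairpin (-0.94 ± 0.55). Ifitm1, which encodes a membrane protein that hinders viral entry, had dim signals of 63.3, 31.1, 24.9 and 21.2 (-1.32 ± 0.28; limma adjusted p = 0.557). It was at least 2-fold lower on all 3 hairpins, as were 1.69% of all genes. Other GTPase genes were mixed. Gbp4, Gbp6, Gbp9 and Irgm2 were below the control on all 3 hairpins and lowest on hairpin 3. On hairpins 2 and 3 the differences were -0.90 and -1.50 for Gbp4 and -0.72 and -0.83 for Gbp6. They were -0.39 and -0.43 for Gbp9, and -0.35 and -0.60 for Irgm2. Gbp5 had the array order of Gbp2, at 0.57, -0.62 and 0.82 on hairpins 1 to 3. Gbp7 was highest on hairpin 3, at 0.58. Ifi47, Tgtp1 and Tgtp2 were lowest on hairpin 2, at -0.69, -0.88 and -1.43. All of these but Gbp4 and Gbp6 were named after their values were seen. Of 15 tested genes of MHC class I antigen presentation, 1 was above (6.67%) and 2 were below (13.3%) the control on all 3. The immunoproteasome genes Psmb8 and Psmb9 and the peptide transporter gene Tap2 were lowest on hairpin 3, at -1.06, -0.84 and -0.80, and Cd274, the gene of the checkpoint ligand PD-L1, was highest there at 1.29. The third immunoproteasome gene, Psmb10, was also highest there, at 0.43, and the peptide-loading gene Tapbp was at 0.51, both named after their values were seen. In the 6 lists limma called no gene. At an unadjusted p under 0.05 it held 1 sensing gene, 2 small RNA processing genes and 2 further interferon-stimulated genes, and none of the other 3 lists, where the shares of all genes were 1.52% higher and 3.31% lower. One of the last 2 was Irf8, named after its values were seen, which passed the filter through the control array alone and was not above background with any Islr hairpin.

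**Figure D5:**
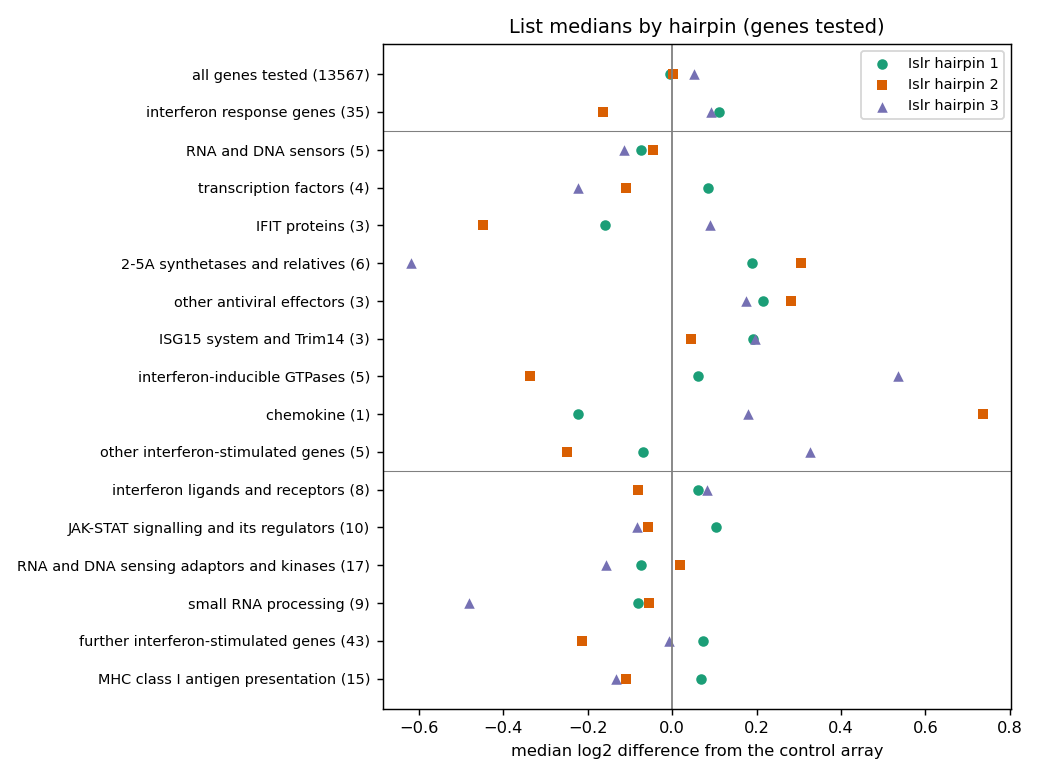
Median log2 difference from the control array on each Islr hairpin for all genes tested, the 35 interferon response genes, their 9 groups by role and the 6 further lists, with the number of genes tested in parentheses and 1 symbol per hairpin. The synthetases (-0.62) and the GTPases (0.53) lie apart on hairpin 3.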

How the data were processed

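The authors deposited, for every array feature, Agilent's processed signal, an intensity that is not log-transformed. Per the file headers the software was Feature Extraction, version 11.5.1.1. The deposited series table held the same intensity times 1 factor per array (2.02 to 2.25), and why is not stated.

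From these, log2 values were averaged over the spots of each probe, and the log2 of each array's 75th percentile over non-control features was subtracted. RefSeq accessions named 28026 of 55681 probes. The filter kept probes called well above background with the control hairpin, or with each of the 3 Islr hairpins. The kept probe of highest mean signal stood for its gene. limma 3.58.1 in R 4.3.3 (lmFit, eBayes, two-sided, Benjamini-Hochberg over 13567 genes) compared the 3 hairpin arrays with the control array, whose spread was taken to equal theirs. Precision is limited by the number of arrays. Differences of 2-fold were counted as well, with no test.

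All 35 measured genes and Islr are named, with up to 4 genes of each further list that had the largest mean difference among those above background on all 4 arrays; some genes that the rule takes are not reported here. The genes, lists and rules were chosen with earlier results of these data known.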

Additional observations from a re-analysis of the deposited data

How the results depend on the processing

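Under 10 other settings (quantile normalization, median centring, normexp with offset 50 and quantile normalization, the series table, all probes unfiltered, probes above background on every array only, averaging the probes of a gene, and each hairpin left out) limma called 0 of the 35 genes, and 0 had an unadjusted p under 0.05. An intensity trend and a threshold of 0.10 also left 0. None of the 35 genes was 2-fold from the control on all hairpins used in the 10 settings, and none was 1.5-fold from it on all 3 hairpins. The median difference ran from -0.05 to 0.02, and from -0.02 to 0.02 with a hairpin left out. Of 350 member differences 1 moved by more than its SD (Ifih1 when its probes were averaged, -0.29) and 24 changed sign, in 15 genes. With normexp, 1 gene in place of 2 was at least 2-fold higher on hairpin 2 and on hairpin 3, and 0 in place of 2 lower on hairpin 3. Over all genes, the 47 lower calls became 75 with quantile normalization, 81 (with 2 higher) at the 0.10 threshold and 0 with normexp, an intensity trend, either other filter or any hairpin left out. No scaling moved the median of all genes by over 0.1. No paired analysis was possible because the control group holds 1 array. The dim genes Oas1g, Oas3, Trim14 and Tlr3 lay below the 75th percentile on every array, and normexp gave smaller differences for them on the hairpin where each stood apart.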
